A study of Homo sapiens with 25 samples.

Results

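The 1279 large constant H3K27ac domains are the regions at least 10000 bp wide that all 4 H3K27ac peak lists of the series touched. They were taken from 186853 regions obtained by merging the lists of chromosomes 1 to 22 and X without a gap. Of these, 34631 were constant, meaning that each of the 4 lists had a peak in them, and the domains made up 3.69% of the constant regions and 15.6% of their bases. H3K27ac therefore chose the members, and its values in them are given as a description without a test. The other 33352 constant regions, shorter than 10000 bp, served for comparison.

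The libraries came from HCT116, an established human colorectal carcinoma line, so that all groups share the genotype of 1 line. Control cells carried an empty pSin lentiviral vector and FOXD2 cells the same vector with the full coding sequence of FOXD2, and both were kept under puromycin. H3K27ac, H3K4me1 and MLL4 had 2 libraries in each of these groups, and H3K4me3 had 1 in each. Cells given a plasmid for FOXD2 with FLAG and 6xHis tags were profiled with an antibody to each tag, in 2 libraries per tag, and no library used these antibodies on cells without the tags. Histone marks were precipitated from MNase-digested chromatin without crosslinking, whereas MLL4 and the tags were precipitated from crosslinked, sonicated chromatin. Whether replicates came from separate cultures is not stated in the labels, so p-values reflect the spread of these libraries alone, and that spread may be technical.

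Acetylation of histone H3 at lysine 27 marks active promoters and enhancers, and long stretches of it, often called super-enhancers, tend to lie at genes that define a cell's identity or respond to its signals. H3K4me1 is typical of enhancers and H3K4me3 of promoters. MLL4, encoded by KMT2D, is the main enzyme that places H3K4me1 at enhancers, and FOXD2 is a forkhead transcription factor. Super-enhancers are usually ranked by summed signal after joining nearby peaks. The domains here were chosen by width alone, so the term applies to them only by likeness.

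Domains held the starts of several genes whose products are well known in epithelial cells, and 4 promoters are printed to show the sequence around which acetylation was spread. RefSeq (GRCh38.p14, the assembly of the hg38 build) gave a start for 15813 of 19974 protein-coding genes, and 520 of these starts lay in a domain. Each stretch is the 250 bases before the start, 5′ to 3′ on the gene's strand, and capitals mark matches to the motifs listed after the sequences. EPHA2 encodes a receptor tyrosine kinase for ephrins, and its stretch is chr1:16156070-16156319 on the minus strand. BCL2L1 encodes the survival protein BCL-XL (chr20:31723964-31724213, minus strand). ID1 encodes an inhibitor of helix-loop-helix factors and a target of BMP signalling (chr20:31605039-31605288, plus strand). MYOF encodes myoferlin, a protein of membrane repair (chr10:93482335-93482584, minus strand). All 4 stretches held H3K4me3 in both lists, and all 4 tag lists had a peak on that of MYOF, 3 on that of BCL2L1 and none on those of EPHA2 and ID1.
EPHA2: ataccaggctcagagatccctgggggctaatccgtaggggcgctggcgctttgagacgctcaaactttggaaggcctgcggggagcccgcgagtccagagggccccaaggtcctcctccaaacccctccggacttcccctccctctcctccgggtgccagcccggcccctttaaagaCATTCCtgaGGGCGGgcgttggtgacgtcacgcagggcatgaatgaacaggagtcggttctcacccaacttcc
BCL2L1: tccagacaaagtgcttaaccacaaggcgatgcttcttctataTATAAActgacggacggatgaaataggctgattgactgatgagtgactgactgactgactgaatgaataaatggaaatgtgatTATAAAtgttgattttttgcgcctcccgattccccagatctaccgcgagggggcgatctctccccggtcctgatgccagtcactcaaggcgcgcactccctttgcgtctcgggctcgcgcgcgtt
ID1: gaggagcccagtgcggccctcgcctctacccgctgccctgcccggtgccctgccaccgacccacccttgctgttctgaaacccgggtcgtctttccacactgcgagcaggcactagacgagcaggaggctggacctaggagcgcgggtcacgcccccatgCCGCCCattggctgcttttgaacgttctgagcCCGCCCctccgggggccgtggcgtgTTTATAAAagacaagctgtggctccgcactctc
MYOF: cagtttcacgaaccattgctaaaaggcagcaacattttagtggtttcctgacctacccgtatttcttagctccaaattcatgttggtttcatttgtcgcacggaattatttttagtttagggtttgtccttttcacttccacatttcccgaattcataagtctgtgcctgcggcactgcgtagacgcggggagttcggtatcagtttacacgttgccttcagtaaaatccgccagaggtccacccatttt

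The motifs searched on both strands were the forkhead core TGTTTAC, AP-1 TGANTCA, TEAD GGAATG, TCF/LEF CTTTGAT, the GC box GGGCGG and the TATA box TATAAA. Matches can share bases, as the 2 TATA matches at ID1 do. The GC box was in 67.9% of the 520 promoters with a start in a domain and in 56.0% of all 15813. TATAAA was in 6.15% against 9.25%, GGAATG in 11.2% against 10.1% and TGANTCA in 5.77% against 5.05%. The forkhead core was in 1.15% against 2.26%, that is in 6 promoters, and CTTTGAT in 1.54% against 1.73%. The MYOF stretch, although covered by peaks of all 4 tag lists, held none of the 6 motifs. Of the promoters not printed, that of NANOS3 held TGANTCA and that of TRIM47 held GGGCGG. A match is only a run of letters, and peak lists give no level of expression for any of these genes.

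Domains also held microRNA genes. Of 1558 RefSeq hairpins on these chromosomes, 66 (4.24%) lay inside 51 domains. The following mature sequences were chosen after the list was seen, because their families are widely studied in epithelium and in carcinoma, and the seed (bases 2 to 8) is in capitals. They do not describe the whole list of 106 mature sequences, which also held those of MIR142, MIRLET7B, MIR195 and MIR338. The miR-200 family maintains the epithelial state, and it lay in 2 domains on different chromosomes. MIR200B and MIR429 were in a 15186 bp domain near TTLL10 on chromosome 1, and MIR200C and MIR141 in a 24384 bp domain at PTPN6 on chromosome 12.
miR-200b-3p: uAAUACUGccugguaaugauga
miR-429: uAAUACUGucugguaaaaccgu
miR-200c-3p: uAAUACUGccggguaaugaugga
miR-141-3p: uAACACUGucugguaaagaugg
miR-21-5p: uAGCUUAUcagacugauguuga
miR-23a-3p: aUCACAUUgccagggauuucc
miR-27a-3p: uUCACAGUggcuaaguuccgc
miR-24-3p: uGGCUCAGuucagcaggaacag

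The first 3 shared the seed AAUACUG, and miR-141-3p differed from them with AACACUG. The TTLL10 domain was covered by H3K27ac peaks over 89.6% and 73.2% of its bases in the control lists and 73.9% and 98.3% in the FOXD2 lists. The PTPN6 domain had 84.8% and 64.4% in control and 79.1% and 91.8% in FOXD2 lists. The groups overlapped in both domains, and neither held a tag site, defined as a merged region that all 4 tag lists touched. MIR21, whose product is among the most studied microRNAs of cancer, lay in the VMP1 domain on chromosome 17, which held 4 tag sites. MIR23A, MIR27A and MIR24-2 lay together in a 31470 bp domain at NANOS3 on chromosome 19, which was among the 10 domains with the most MLL4.

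The domains were 10005 to 52600 bp wide, with a median of 12938 bp and an upper quartile of 15927.5 bp, and covered 18.6 Mb. Shorter constant regions had a median width of 2504.5 bp and covered 100.9 Mb. Widths of 15000 bp or more were reached by 408 domains, 20000 bp by 138 and 30000 bp by 29. Domain bases lay in all 4 lists for 49.0%, so a domain was often a union of peaks that differed between libraries, and 219 domains held 10000 bp common to all 4 lists. A single peak of at least 10000 bp was rare in the control lists (142 and 136) and more frequent in the FOXD2 lists (379 and 663). The median domain was made of 4 peaks in each control list, 3 in the first FOXD2 list and 2 in the second. The narrowest domains, at PDXP (10005 bp), on chromosome 8 near the noncoding CASC21 (10006 bp) and at TIAM1 (10010 bp), hardly differed in width from the regions left out at HYAL3 (9990 bp), ABHD17A (9993 bp) and ZFHX3 (9996 bp). Of 1282 merged regions of this width, 3 were not touched by all 4 lists.

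H3K27ac lists held 129995 and 85832 peaks in control and 85122 and 141008 in FOXD2 cells. MLL4 lists held 16046 and 13571 peaks in control and 22493 in the first FOXD2 library, but 4676 in the second. Tag lists held between 26942 and 48194 peaks, and the read depth is unknown. As a check of the cell line, and with 6.25% of all protein-coding genes overlapping a domain, 5 of 15 colon epithelium markers overlapped a domain (KRT19, CDH1, KRT8, ELF3 and KRT18), and none of 8 blood or 8 fibroblast and endothelium markers did. The colon epithelium markers that overlapped none were EPCAM, CDX1, CDX2, VIL1, KLF5, HNF4A, CDH17, LGR5, ASCL2 and MYB. Of the 6 epithelial markers with a start in the RefSeq table, 5 had H3K4me3 on the 250 bases before it in both lists (KRT8, CDX2, HNF4A, ELF3 and MYB), against none of 4 blood markers, none of 2 fibroblast and endothelium markers and 1 of 3 neural markers (SYT1). One of 6 neural markers, RBFOX3, overlapped a domain, in which H3K4me1 covered 8.75% and 6.77% of bases in control and 3.49% and 0% in FOXD2 lists.

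The widest domain, 52600 bp on chromosome 17, lay across the long noncoding RNA gene LINC00673, with no protein-coding gene within 100 kb. The next was the 47437 bp domain at EPHA2. Domains at KRT80, an epithelial keratin, at SETD1B, an H3K4 methyltransferase, and at LSP1, an actin-binding protein of leukocytes, measured 38808, 37645 and 37477 bp. Those at BCL9L, a coactivator of beta-catenin, at CUEDC1 and at SYTL3, a vesicle transport protein, measured 37084, 36988 and 36654 bp. Those at BCL2L1 and at ACTN4, an actin crosslinker, measured 36649 and 36104 bp. All 10 held H3K4me3 in both lists, and 8 held MLL4 in all 4 lists, the exceptions being the LINC00673 and SYTL3 domains with 3. A few genes overlapped several domains: GSE1 overlapped 7, CTBP2, a transcriptional corepressor, 5, and CAMTA1, CMIP, TTC7A and RXRA, a retinoid nuclear receptor, 4 each. These genes span from 114 kb (RXRA) to 984 kb (CAMTA1), with GSE1 at 507 kb, and a longer gene has more room for domains. Neighbouring domains lay under 12000 bp apart in 180 pairs.

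Protein-coding genes overlapped a domain in 1248 of 19974 cases, or 6.25%, the background for the gene lists that follow. These lists were assembled from general knowledge, with earlier results of these data known. Epithelial junction and keratin genes overlapped domains in 8 of 20 cases (KRT19, CDH1, JUP, CLDN4, KRT8, CLDN7, F11R and KRT18), and mesenchymal genes in none of 20. KRT19, CDH1, KRT8 and KRT18 were also among the colon epithelium markers above, so those results are not separate. EGFR and MAPK feedback genes did so in 5 of 20 (EPHA2, IER3, SPRY4, DUSP4 and DUSP5). Of the TGF-beta and BMP pathway genes, ID1, SMAD7, SMAD3 and SKI overlapped domains, and no count is given for that list. YAP and AP-1 genes (AMOTL2, AXL, FOSL1 and JUNB) and p53 targets (GDF15, PLK3, BBC3 and PHLDA3) each had 4 of 20. Wnt targets (EPHB2 and CCND1), intestinal transcription factors (EHF and ELF3), cell cycle genes (CDC20 and E2F2) and ribosomal protein genes (RPS2 and RPS18) had 2 of 20 each. H3K4 methyltransferase complexes had 2 of 17 (SETD1B and PAGR1) and enhancer coactivators none of 20. No list was tested against the others.

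H3K4me1 covered 66.0% and 57.4% of domain bases in the control lists and 65.2% and 63.6% in the FOXD2 lists. Shorter constant regions had 51.8%, 43.4%, 50.8% and 48.5% in the same order. Every library was higher in the domains, by 14.5 percentage points on average, with an exact two-sided sign-flip test over the 4 libraries at p = 0.125, the smallest it can give. H3K4me1 was in all 4 lists in 1231 domains (96.2%) and in none in 18, whereas 17.9% of shorter regions had no H3K4me1. Coverage also grew with width within the domains: the mean over the 4 lists was 59.1% at 10 to 15 kb, 64.4% at 15 to 20 kb and 72.7% at 20 kb or more. Against the 4970 constant regions of 5000 to 10000 bp, the domains were still 9.97 points higher.

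**Figure D1:**
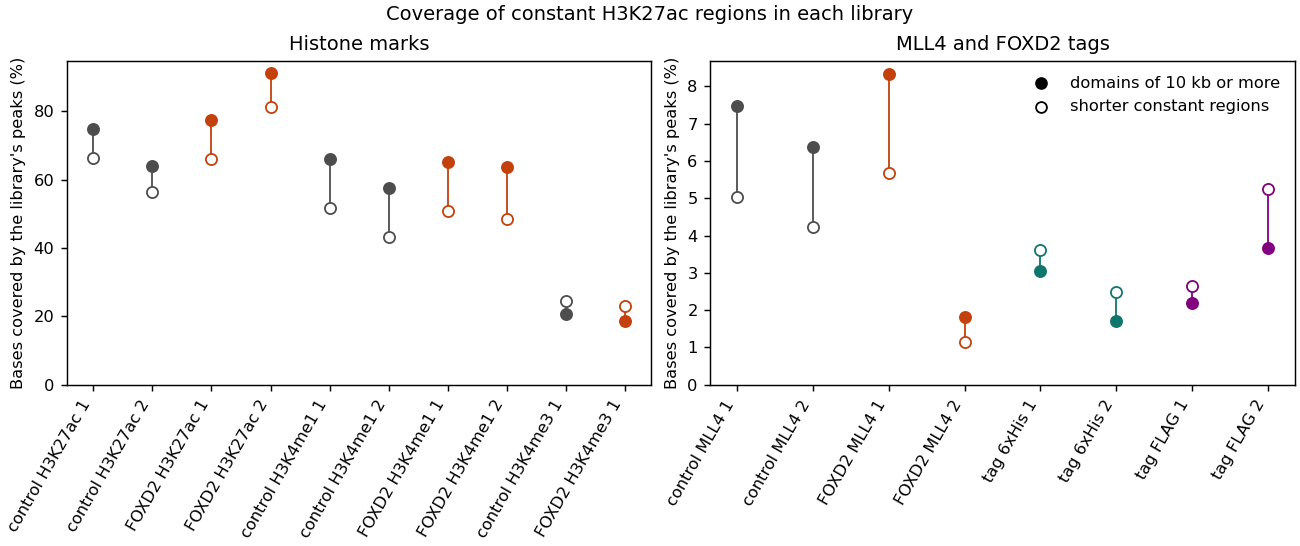
Share of bases covered by peaks of each of the 18 libraries (y axis, percent) in the domains (filled) and in shorter constant regions (open), with control in grey, FOXD2 in orange, 6xHis in green and FLAG in purple. H3K4me1 and MLL4 lie higher in the domains in every library, and H3K4me3 and the tags lie lower.

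MLL4 covered 7.47% and 6.37% of domain bases in the control lists and 8.32% and 1.82% in the FOXD2 lists. In shorter constant regions the shares were 5.03%, 4.22%, 5.67% and 1.15%. The second FOXD2 list was far below the other 3 in both kinds of region, while each list was higher in the domains. Counted as peaks, the domains held 18.3 more per Mb on average, with the exact sign-flip test over 4 libraries again at its smallest p of 0.125. With H3K27ac peaks limited to −log10 q of 5 or more, this excess was 0.889 peaks per Mb and the libraries differed in sign (p = 1.0 in the exact sign-flip test). A domain held MLL4 in all 4 lists in 470 cases (36.7%, 95% Wilson interval 34.1% to 39.4%) and in none in 67 (5.24%). Without the short second FOXD2 list, 832 domains held MLL4 in the other 3, a count not made for the shorter regions. Of the shorter regions 4.69% held it in all 4 lists, although a wider region has more room for a peak. Domains took in between 11.7% and 15.1% of the peaks of each MLL4 list.

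**Figure D2:**
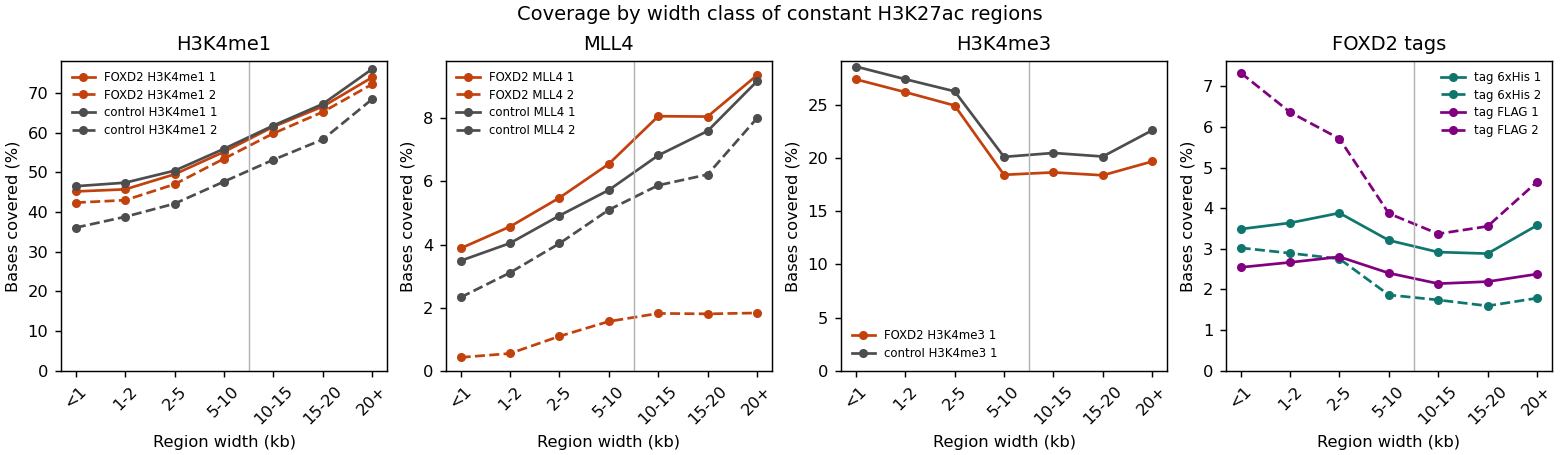
Share of bases covered (y axis, percent) in 7 width classes of constant H3K27ac regions (x axis, kb), 1 line per library, with a grey line at 10 kb. H3K4me1 rose from a mean of 42.6% in the narrowest class to 72.7% in the widest and MLL4 from 2.53% to 7.09%, while H3K4me3 went from 28.0% to 21.1%.

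The domain with the most MLL4 was that of PLEC, the cytoskeletal linker plectin, where peaks covered 34.2% and 33.4% of its 30564 bp in control and 39.1% and 7.22% in FOXD2 lists. EPHA2 had 15.9%, 15.2%, 12.6% and 3.33% in the same order. At NANOS3, with the miR-23a cluster, the shares were 21.9% and 21.4% in control and 14.3% and 1.16% in FOXD2 lists. FOXD2 lists lay below both control lists at EPHA2 and NANOS3, but on either side of them at PLEC. The others of the 10, by mean MLL4 length, were BCL9L, TMC8, CUEDC1, TRIM47, GSE1, CIRBP, an RNA-binding protein induced by cold, and IER2, an immediate-early gene. Their mean MLL4 length over the 4 lists ran from 3.93 kb at IER2 to 8.71 kb at PLEC. None of these 10 held a tag site except EPHA2, with 1, where 13.7% of all domains held one.

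H3K4me3 was in both lists in 1057 domains (82.6%, Wilson interval 80.5% to 84.6%), in 1 list in 81 and in neither in 141. It covered 20.8% of domain bases in control and 18.8% in FOXD2 cells, against 24.5% and 23.0% in shorter constant regions, with 1 library a group and no test. The 141 domains without it differed in their other marks. Their H3K4me1 covered 25.3% to 30.4% of bases over the 4 lists, against 61.2% to 70.2% in the domains with H3K4me3 in both lists. MLL4 was in all 4 lists in 4.26% of the former and 42.6% of the latter. The widest of the CAMTA1 domains, for example, held no H3K4me3, and H3K4me1 covered between 17.7% and 52.2% of it.

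Within the domains, MLL4 lay mostly on H3K4me3. Inside H3K4me3 peaks of either list, which made up 4.18 Mb of the domains, MLL4 covered 26.7% and 23.7% in control and 24.6% and 6.56% in FOXD2 lists. Outside them, over 14.4 Mb, it covered 1.91%, 1.36%, 3.60% and 0.444%. On the H3K4me3 parts of shorter regions MLL4 covered 15.6%, 12.7%, 15.0% and 3.00%, lower than in the domains in each list. Outside H3K4me3 the shorter regions had 1.41%, 1.30%, 2.45% and 0.520%, so that 3 lists were higher in the domains and the second FOXD2 list was lower. The larger part of the excess over shorter regions thus lay on H3K4me3-marked bases.

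All marks were densest in the middle of a domain. MLL4 in the first control list covered 3.28% of the outer 20% of the width and 9.56% of the middle 20%, and H3K4me3 in FOXD2 cells 10.1% and 23.5%. Bases acetylated in all 4 lists made up 27.2% of the outer and 58.6% of the middle part. Since the ends of a domain are by construction the ends of the outermost H3K27ac peak, the fall of H3K27ac toward the ends is set by the rule.

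**Figure D3:**
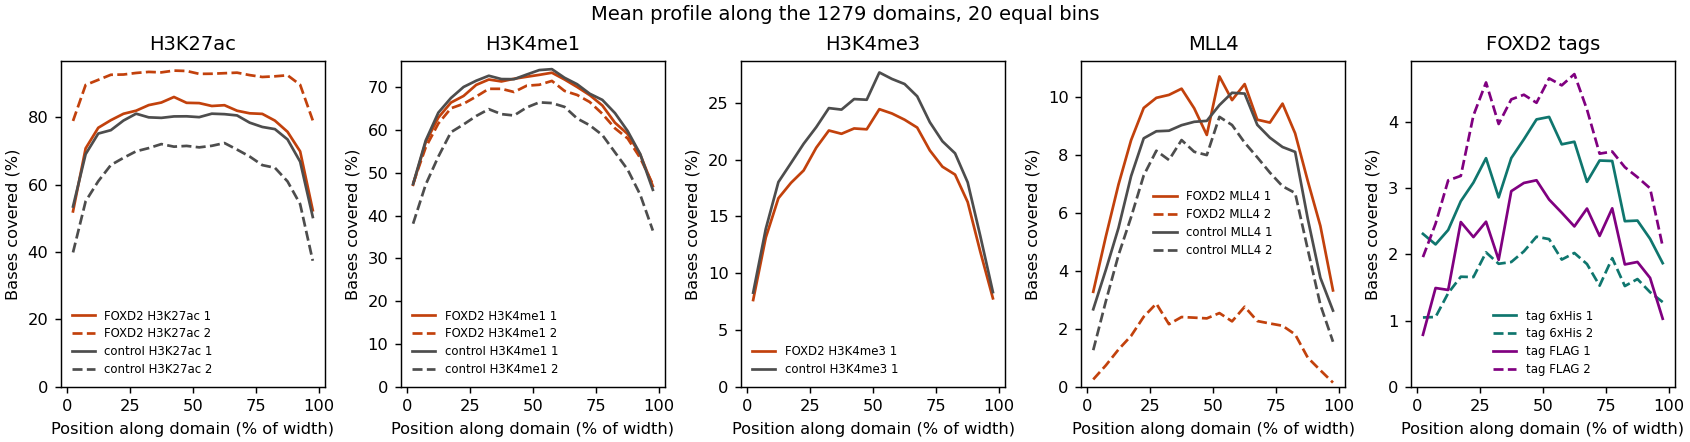
Mean share of bases covered (y axis, percent) along the 1279 domains, each divided into 20 equal bins (x axis, percent of width), 1 line per library. Coverage is highest toward the middle for every mark, and the second FOXD2 MLL4 list lies below the other 3 over the whole width.

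FOXD2 tag peaks were sparse in the domains. They covered 3.04% and 1.71% of bases in the 6xHis lists and 2.2% and 3.66% in the FLAG lists, against 3.62%, 2.49%, 2.65% and 5.24% in shorter constant regions. All 4 lists were lower in the domains, by 21.4 peaks per Mb on average, with the exact sign-flip test over 4 libraries at p = 0.125, the smallest it can give. Against constant regions of 5000 to 10000 bp the difference was −3.05 peaks per Mb, in the same direction. When the domains were merged without the second FOXD2 H3K27ac library, the difference from all shorter regions was −6.78 peaks per Mb. The sign depended on where the bases lay. Inside H3K4me3, tag coverage was 4.48%, 2.78%, 3.03% and 7.46% in the domains and 7.33%, 6.22%, 5.12% and 14.1% in shorter regions. Outside it, the domains had 2.62%, 1.41%, 1.96% and 2.57%, and the shorter regions 2.34%, 1.21%, 1.80% and 2.18%, so each list was slightly higher in the domains.

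A tag site of all 4 lists was in 175 domains (13.7%, Wilson interval 11.9% to 15.7%), and 658 domains (51.4%) had no tag peak in any list. Of the shorter regions 5.81% held a tag site and 71.1% had no tag peak, although a wider region has more room for a peak. Sites numbered 229 in the domains, of 5399 in all, or 11.8 per Mb against 16.7 per Mb in shorter regions. More than 1 site was in 42 domains. Domains outside protein-coding genes held a site in 27.9% of 251 cases, those with a RefSeq gene start in 8.85% of 407, and those overlapping a gene without holding such a start in 11.1% of 621. RefSeq starts were missing for 4161 genes, and 139 of the 621 domains held an end of such a gene, so that some may hold a start as well. The VMP1 domain, at a gene of autophagy, and the DLGAP1 domain, at a postsynaptic scaffold gene, held the most sites, 4 each. In the VMP1 domain, which was named for its tag sites, tag peaks covered 31.0% and 17.3% of bases in the 6xHis lists and 25.2% and 22.9% in the FLAG lists. Sites numbered 3 in the MYOF domain, at ANXA3, an annexin, at BAG3, a chaperone partner, at PTPRJ, a receptor phosphatase, at TCF7L2, the Wnt pathway factor, and at ZBTB5. The 2 others of the 10 with 3 sites lay across the noncoding genes LINC01714 and CASC21. MLL4 was in all 4 lists in 86 of the 175 domains with a tag site, and in 470 (36.7%) of all 1279; this difference was not tested.

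H3K27ac covered 75% and 64.1% of domain bases in the control lists and 77.6% and 91.1% in the FOXD2 lists. Both FOXD2 lists were thus above both control lists, with means of 69.5% ± 7.68 (SD, n = 2) and 84.3% ± 9.55 (SD, n = 2). The shorter constant regions had 61.4% and 73.7%, a difference of 12.3 points against 14.8 in the domains. The latter was 8.09 points with 10000 bp required in all 4 lists, and 10.4 to 22.1 points with 1 H3K27ac library left out. The first FOXD2 list was only slightly above the first control list, and the second came from the longest of the 4 peak lists. With equal H3K27ac list lengths, however, the difference in the domains was 15.98 points. With H3K27ac peaks limited to −log10 q of 5 or more it was 17.18 points. Because the merged width depends on all 4 lists, a list with broad peaks both makes domains and covers them. Without the second FOXD2 list, 683 regions met the same rule, and 676 of the 1279 domains (52.9%) overlapped one of them.

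Over all domains, H3K4me1 and MLL4 differed between the groups by less than the spread between libraries. The control mean of H3K4me1 was 61.7% ± 6.02 (SD, n = 2), the FOXD2 mean was 64.4% ± 1.14 (SD, n = 2), and the exact two-sided permutation test gave p = 1.0, where 2 libraries against 2 cannot go below 0.333. MLL4 averaged 6.92% ± 0.776 and 5.07% ± 4.60 (SD, n = 2 each), with p = 1.0 in the exact permutation test. MLL4 peaks were in 79.7% and 75.6% of domains in control and 85.6% and 41.2% in FOXD2 lists, also with p = 1.0 in the exact permutation test. Without the second FOXD2 MLL4 library, both MLL4 differences turned positive, to 1.39 points of bases and 7.98 points of domains. H3K4me3 was present in 86.8% of domains in control and 84.8% in FOXD2 cells.

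Single domains moved in both directions. H3K27ac coverage was higher in both FOXD2 lists than in both control lists in 556 domains (43.5%), where 29.4% of all constant regions were, and lower in 40 (3.13%), where 7.1% were. Without the first FOXD2 library 1077 domains were higher, and without the first control library 915. H3K4me1, whose lists the rule did not use, was higher in 389 domains (30.4%, against 19.0% of all constant regions) and lower in 213 (16.7%, against 13.6%). Without the first control H3K4me1 library 819 were higher. MLL4 was higher in 31 (2.42%, against 1.06%) and lower in 317 (24.8%, against 9.42%). Without the first FOXD2 MLL4 library 813 were lower, without the second control library 529, and without the short second FOXD2 list 334. In that last setting the domains with higher MLL4 were not counted, and MLL4 coverage was 1.39 points higher in FOXD2 cells. Counts with a library left out have no matching share over all constant regions. With a single list in a group the groups separate more easily, so these counts show only their dependence on single libraries. Regions with a mark in no list cannot be counted in either direction, and they made up 17.9% of shorter regions for H3K4me1 and 55.0% for MLL4, against 1.41% and 5.24% of the domains. Of the 40 domains with lower H3K27ac, 27 also had lower H3K4me1 and none higher. Of the 556 with higher H3K27ac, 307 had higher and 29 lower H3K4me1. These joint counts were not made over all constant regions. Broad FOXD2 H3K27ac peaks helped to choose the members, so the H3K4me1 shares may not be independent of that choice.

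**Figure D4:**
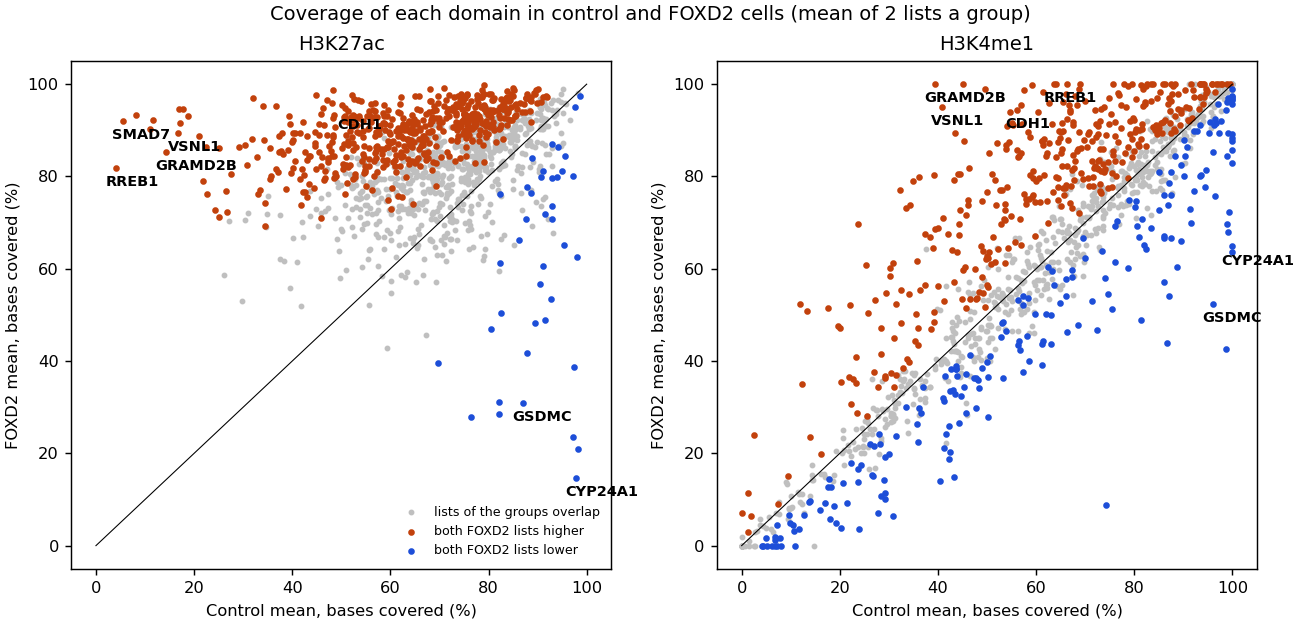
FOXD2 mean against control mean of the share of bases covered (percent, 2 lists a group) in each of the 1279 domains, for H3K27ac and H3K4me1, with the line of equality. In orange domains both FOXD2 lists were above both control lists (556 for H3K27ac, 389 for H3K4me1), and in blue ones below (40 and 213).

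Where H3K27ac was higher in FOXD2 cells, the largest difference was at SMAD7, the inhibitory SMAD of TGF-beta signalling. Its 16174 bp domain was covered over 6.86% and 4.14% in control and 92.3% and 91.7% in FOXD2 lists. H3K4me1 covered 100%, 98.0%, 100% and 100% of it, so that the region was methylated in both groups. STRA6, a receptor for retinol uptake, had 19.7% and 3.70% in control against 84.4% and 100% in FOXD2 lists, with H3K4me1 at 94.4% to 99.3% in all 4. RREB1, a zinc finger factor of the RAS pathway, had 4.62% and 3.63% against 88.6% and 75.2%, and its H3K4me1 was also higher, at 70.2% and 57.2% against 100% in both. PADI1, a peptidylarginine deiminase, had 18.4% and 3.75% against 82.5% and 98.2%. A domain on chromosome 3 with no coding gene within 100 kb went from 13.3% and 3.20% to 93.2% and 93.3%. No tag site lay in any of these 5 domains, where 13.7% of all domains held one, and this was not tested. The rule used the H3K27ac lists, and control peaks alone would not have made any of these 5 domains 10000 bp wide. Their H3K27ac differences are therefore a description.

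Where H3K27ac was lower, the largest difference was at CYP24A1, the enzyme that breaks down active vitamin D. Its 11502 bp domain had 95.6% and 100% in control and 26.6% and 2.77% in FOXD2 lists, with H3K4me1 at 100% in both control and at 70.9% and 58.8% in FOXD2 lists. It held 1 tag site, and MLL4 peaks were in both control lists (8.70% and 5.29%) and in neither FOXD2 list. A domain nearest BLID, across the MIR100HG locus, had 96.6% and 99.7% against 36.0% and 5.91%, with 1 tag site. GSDMC, a gasdermin, had 78.1% and 96.0% against 56.4% and 5.49%. The other 2 lay on chromosome 1, one with ERRFI1, which encodes a feedback inhibitor of EGFR, as its nearest coding gene and one with no coding gene within 100 kb. In all 5 the groups did not overlap for H3K4me1 either, with both FOXD2 lists lower. The rule used the H3K27ac lists, and FOXD2 peaks alone would not have made any of these 5 domains 10000 bp wide. Their H3K27ac differences are likewise a description.

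**Figure D5:**
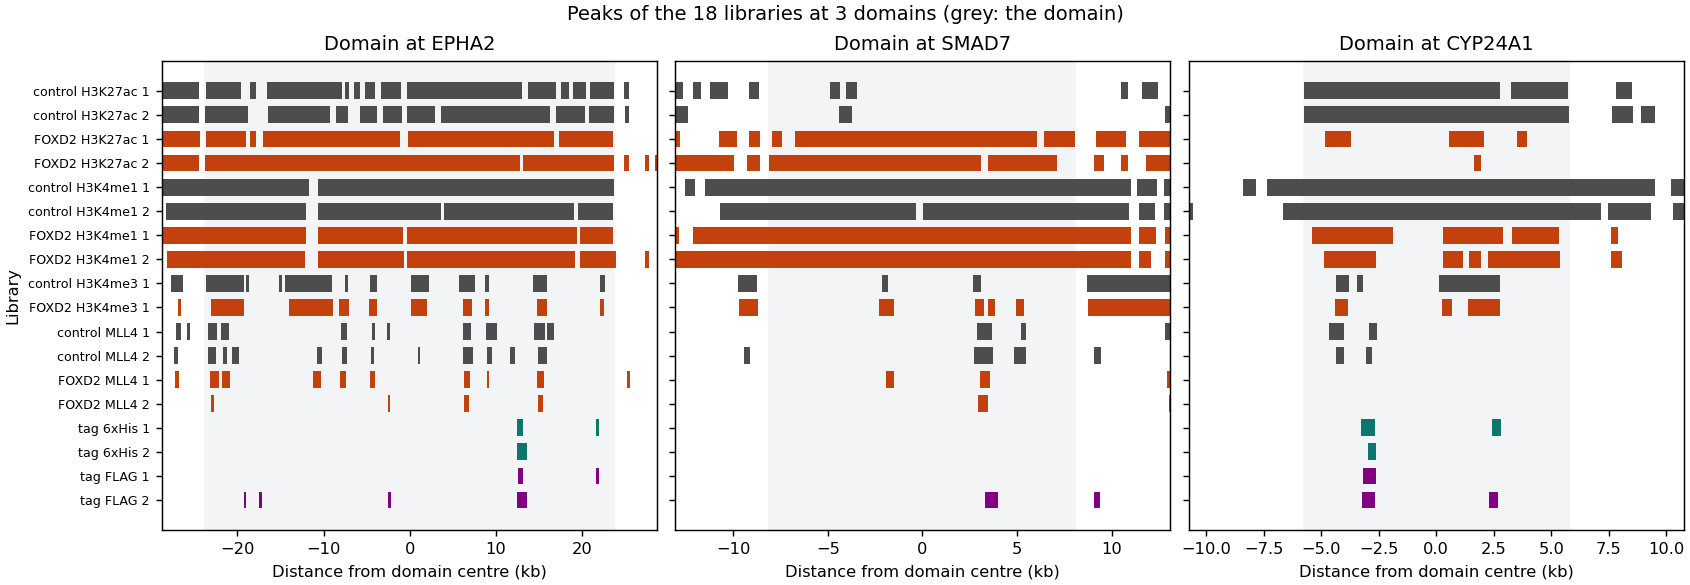
Peaks of the 18 libraries (rows) along the domains at EPHA2, SMAD7 and CYP24A1 (grey), by distance from the domain's centre (x axis, kb). EPHA2 was covered in both groups, SMAD7 was acetylated over 6.86% and 4.14% of its width in control against 92.3% and 91.7% in FOXD2 lists, and CYP24A1 the reverse, 95.6% and 100% against 26.6% and 2.77%.

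For H3K4me1 the largest gains were at GRAMD2B (30.8% and 48.0% in control, 100% in both FOXD2 lists), near TOMM20, a subunit of mitochondrial import (46.5% and 43.8% against 100% and 99.9%), and at VSNL1, a calcium sensor (39.4% and 42.3% against 90.2% and 100%). Domains near ENSA, an inhibitor of the phosphatase PP2A, and at SH3PXD2A, an invadopodium scaffold, followed. H3K27ac was also higher in both FOXD2 lists in these 5 domains. CDH1, encoding E-cadherin, showed the same: H3K4me1 covered 58.0% and 54.0% in control and 98.9% and 90.0% in FOXD2 lists, and H3K27ac 55.1% and 47.6% against 94.5% and 93.8%. Because the rule used the H3K27ac lists, these H3K27ac differences are a description and no separate support for those in H3K4me1. Mean control H3K27ac coverage was 14.4% at GRAMD2B, 16.9% near TOMM20, 16.8% at VSNL1, 56.1% near ENSA and 75.6% at SH3PXD2A. The CDH1 domain held 1 tag site, and its MLL4 coverage was 0% and 2.15% in control and 7.20% and 1.85% in FOXD2 lists, which overlapped. The largest loss of H3K4me1 was in a domain near LOC124909439 on chromosome 3, from 88.3% and 60.2% to 6.73% and 10.8%. IRAG1 fell from 97.3% and 75.9% to 45.9% and 41.9% of bases, while its H3K27ac overlapped between the groups at 79.0% to 90.3%. By contrast, the EPHA2 domain had H3K4me1 at 95.0% to 97.6% in all 4 lists, with overlapping groups.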

How the data were processed

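ChIP-seq peak lists of 18 of the 25 libraries were used, and the 7 inputs are not used here. Per the submitters' processing notes, the build was hg38 and the tools were MACS2 2.2.7.1, bedtools, Picard, Bowtie2 2.3.4.1 and cutadapt 3.4. The authors deposited a separate list for each library, called without pooling. For every peak the deposited lists give a fold enrichment (ratio), −log10 of the p-value, −log10 of the q-value and a score. Only positions were used, and the q-value for 1 alternative. Which background library each call used was not stated in the labels.

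Peaks off chromosomes 1 to 22 and X were left out (1 to 35 per list). An overlap of 1 bp with a peak was enough for a region to hold a mark. Covered share is the percentage of bases under peaks. Wilson intervals (95%) cover the counting of regions only. Exact permutation tests compared the groups, and exact sign-flip tests over libraries compared domains with shorter regions.

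A domain was named by the protein-coding gene it overlapped most, otherwise the nearest within 100 kb. Named domains were the 10 widest, the 10 with most MLL4, the 10 with most tag sites, the 5 largest differences per direction for H3K27ac and H3K4me1 among domains whose groups did not overlap, 3 on either side of the width threshold, the 5 genes with most domains and up to 4 members per gene list. CLDN7, F11R, KRT18, DUSP5, TTC7A and the microRNAs were added after their values were seen. One result of a gene list is not reported here. The members and lists were chosen with earlier results of these data known. Alternatives were other gaps, widths and q-values, equal list lengths, each library left out and a replicate block. Comparison with regions of 5000 bp or more, bases outside H3K4me3, midpoint placement, covered share as unit, crossed replicate numbers and the counts without single libraries were chosen after seeing the data. The scripts were tested on simulated lists. The software was scipy 1.17.1, pandas 2.3.3, numpy 2.4.6 and matplotlib 3.10.9 under Python 3.11.15.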

Additional observations from a re-analysis of the deposited data

How the results depend on the processing

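Of 185 alternative values, 8 changed sign, and 27 of those compared by size moved beyond the limit set for them. For differences, keeping the sign did not mean keeping the size. The number of domains was 2398 with a merging gap of 500 bp, 4638 when peaks within 12000 bp were joined, 408 at a width of 15000 bp, 219 with 10000 bp in all 4 lists, and 683 to 1190 with 1 H3K27ac library left out, the lowest without the second FOXD2 library. The excess of H3K4me1 and MLL4 over shorter regions became −14.4 points and −40.0 peaks per Mb when peaks within 12000 bp were joined, and the MLL4 excess was 0.889 with H3K27ac peaks at −log10 q of 5 or more. The tag difference was −73.1 peaks per Mb with joined peaks, −6.13 with 10000 bp in all 4 lists and −6.78 without the second FOXD2 H3K27ac library. The FOXD2 minus control difference in H3K4me1 was −0.18 points with 10000 bp in all 4 lists and −1.54 to 6.97 with 1 library left out, negative without the second control library. The MLL4 difference ranged from −5.11 to 1.39 points of bases and from −36.4 to 7.98 points of domains with 1 library left out, positive only without the second FOXD2 MLL4 library. Outside H3K4me3 the tag difference between domains and shorter regions was 0.26 points of covered bases. The H3K4me3 difference between domains and shorter regions was −4.53 points with the gap of 500 bp, −21.8 with joined peaks, −11.3 with H3K27ac peaks at −log10 q of 5 or more, −5.41 with equal list lengths, −3.26 at 15000 bp, 1.59 with 10000 bp in all 4 lists and −4.00 to −0.39 with 1 library left out. The share of domains with a tag site was 16.9% with joined peaks, 17.4% at 15000 bp, 21.9% with 10000 bp in all 4 lists, 5.71% with tag peaks at −log10 q of 5 or more, 31.7% for regions of at least 2 tag lists and 9.38% to 21.4% with 1 library left out. Width thresholds, joining, a stricter q and a looser tag site change by construction what is counted. Joining merged constant regions within 12000 bp of each other, so joined domains also hold the bases between those regions. For the other changes the cause was not tested.

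The labels give no shared batch behind replicate numbers, and deviations of same-numbered libraries correlated at −0.694 for H3K27ac, 0.144 for H3K4me1 and 0.169 for MLL4. The replicate block left the paired mean differences at 14.8, 2.72, −1.86 and −14.2, with a smallest possible p of 0.5. With crossed numbers the H3K27ac difference was again 14.8. Read depth is unknown, so a missing peak may be a matter of depth, most of all in the second FOXD2 MLL4 list, and a covered share does not measure signal height.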

Other observations

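A group of 4 domains lay close together on chromosome 1 between 8070213 and 8216016, beyond ERRFI1, and none overlapped a protein-coding gene. All 4 had lower H3K27ac and lower H3K4me1 in both FOXD2 lists. In the order of position, mean H3K27ac coverage was 89.5%, 97.4%, 97.2% and 95.3% in control and 48.2%, 38.7%, 23.5% and 65.2% in FOXD2 lists. Mean H3K4me1 coverage was 100%, 100%, 98.8% and 99.1% in control and 82.9%, 89.2%, 42.5% and 67.9% in FOXD2 lists. The first and second held 2 tag sites each, the third none and the last 3. MLL4 peaks were in all 4 lists in the first and last and in none in the others. Since these domains are neighbours, they are not independent of each other.

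Domains were unevenly spread over chromosomes. Per 100 protein-coding genes, chromosome 22 held 14.0 and chromosome 17 held 11.4, whereas chromosome 4 held 2.99 and chromosome X 0.354, with 3 domains in all. Among the other microRNA genes, MIR182 and MIR96, of a cluster known from sensory cells and carcinomas, lay in a 14371 bp domain near NRF1 on chromosome 7, and MIR203A, a microRNA of epidermal differentiation, in a 22386 bp domain at ASPG on chromosome 14. The NRF1 domain had MLL4 coverage of 15.4% and 16.6% in control and 10.9% and 2.36% in FOXD2 lists, so both FOXD2 lists were lower. In the ASPG domain the shares were 8.42% and 3.18% against 7.08% and 0%, and the groups overlapped.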
